A study of Mus musculus with 4 samples.

Results

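The 1123 regions described here come from FoxO1 ChIP-seq of the mouse heart. They lay inside an annotated gene, more than 1000 bp and at most 10000 bp from the nearest start site, and overlapped no CpG island. The rule that picks them, from the 16126 regions merged over libraries in the deposited table, uses annotation columns and no measured value. In 450 of them no interval was called in any of the 3 FoxO1 libraries, and the merging took in 2 libraries not used here. Hearts came from wild type C57BL/6 male mice aged 12 weeks, in 3 conditions of 7 days each. Veh/Sham mice received daily subcutaneous vehicle and a sham operation. Iso mice received isoproterenol, a beta-adrenergic agonist, subcutaneously at 3 mg/kg per day. TAC mice underwent transverse aortic constriction, surgery that puts a pressure load on the left ventricle by narrowing the aortic arch. Each condition was a pool of 3 hearts that gave 1 FoxO1 library. With no replicate libraries there was no spread between replicates and no test, and every difference below is a difference between 2 libraries. Hearts were whole tissue, so a change in the number of cells of a type and a change per cell cannot be told apart. The input library was not analysed here.

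FoxO1 belongs to the forkhead family of transcription factors and leaves the nucleus when insulin or growth factors activate the kinase Akt. In the heart it is known for genes of metabolism, autophagy, stress resistance and growth. Stretches inside genes, often in the first introns, can act as enhancers or as alternative start sites, and those without a CpG island tend to differ more between cell types than CpG-rich promoters do.

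The regions were spread over 20 chromosomes and 798 host genes. Of these genes 590 held 1 region, 138 held 2 and 70 held 3 or more, and the 70 genes held 257 regions. The nearest start belonged to the host gene in 895 regions and to another gene in 228. In 127 regions the start of the host gene itself lay beyond 10000 bp. Of those named below, these include regions in Nfib (38354 bp from its start), Pde2a (44169 bp), Pfkfb3 (38079 bp) and Syn1 (57139 bp). Regions in Rtn2, Epha1 and Arrb1 are also among them. The median region was 323 bp long, against 409 bp over all merged regions. Chromosome 7 held 131 regions, 11.7% of them, against 7.53% of all merged regions. The table says that a region lies in a gene and not whether it lies in an exon, an intron or a UTR. Nearest to the lower limit, the region in Rab11a at 1001 bp had a mean signal (average fragment depth) of 8.71 for Veh/Sham, 16.9 for Iso and 12.1 for TAC, while the region of Abca1 left out at 998 bp had 9.88, 11.0 and 14.2. Nearest to the upper limit, a region in Airn, 9923 bp from the start of Igf2r, had 10.7, 22.4 and 20.1 in the same order. The region of 4933406C10Rik left out at 10028 bp had 9.85, 15.1 and 12.4.

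Sequence was read for those regions that met a RefSeq start window, since some RefSeq transcripts start inside the gene at sites that the table does not count as starts. Of the 1123 regions, 60 overlapped 69 such windows, each running from 250 bases before to 50 bases after a start. Forkhead factors bind DNA around the letters GTAAACA. The 4 stretches below are shown because they hold these letters or their reverse complement TGTTTAC, set in capitals. Each is the part of a RefSeq window (GRCm38.p6, the assembly that mm10 names) before the start that lies inside the merged region. It is written 5′ to 3′ on the strand of the transcript. Gpr146 codes for an orphan G protein-coupled receptor (chr5:139389654-139389903, plus strand). Tor1aip2 codes for a torsin activator of the nuclear envelope and endoplasmic reticulum (chr1:156040590-156040839, plus strand). The Dhx32 start, of a helicase family gene, lies within a region of Fank1 (chr7:133782786-133783035, minus strand). Lipe codes for hormone-sensitive lipase, which releases fatty acids from stored fat (chr7:25390113-25390362, minus strand).
Gpr146: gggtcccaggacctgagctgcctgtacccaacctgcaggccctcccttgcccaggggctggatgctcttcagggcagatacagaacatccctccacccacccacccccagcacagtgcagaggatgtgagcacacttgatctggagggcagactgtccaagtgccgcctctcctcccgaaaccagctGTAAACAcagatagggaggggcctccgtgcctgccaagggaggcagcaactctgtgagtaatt
Tor1aip2: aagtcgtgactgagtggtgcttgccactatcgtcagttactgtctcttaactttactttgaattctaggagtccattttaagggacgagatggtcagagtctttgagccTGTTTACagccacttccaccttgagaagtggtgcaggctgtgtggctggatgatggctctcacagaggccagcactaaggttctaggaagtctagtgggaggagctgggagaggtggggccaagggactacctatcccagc
Dhx32: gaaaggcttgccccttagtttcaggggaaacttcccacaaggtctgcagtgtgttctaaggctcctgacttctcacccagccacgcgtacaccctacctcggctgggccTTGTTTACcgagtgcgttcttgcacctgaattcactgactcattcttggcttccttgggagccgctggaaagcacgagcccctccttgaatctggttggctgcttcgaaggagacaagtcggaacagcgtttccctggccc
Lipe: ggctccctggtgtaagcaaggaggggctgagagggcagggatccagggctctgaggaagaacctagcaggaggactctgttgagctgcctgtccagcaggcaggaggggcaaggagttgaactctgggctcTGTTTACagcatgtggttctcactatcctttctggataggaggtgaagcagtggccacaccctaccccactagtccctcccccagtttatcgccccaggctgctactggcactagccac

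The Gpr146 region had a mean signal of 10.8 for Veh/Sham, 15.1 for Iso and 20.5 for TAC, with an interval called by the authors in all 3 libraries. The Tor1aip2 region had 12.6, 18.1 and 13.2 and was called in 2 libraries. The region at the Dhx32 start had 5.92, 11.8 and 16.6 and was called in 1 library. The Lipe region had 7.73, 13.8 and 7.18 and was called in none. The 4 regions that share the forkhead letters therefore had different orders of the libraries. In Gpr146 and at Dhx32 TAC was highest, and in Tor1aip2 and Lipe Iso was highest. The Dhx32 stretch also holds the longer form TTGTTTAC, which contains the same forkhead letters, and the AP-1 letters TGACTCA.

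On either strand, GTAAACA occurred in 6 of the 69 windows (8.7%, 95% Wilson interval 4.05 to 17.7) and in 3.65% of 32817 RefSeq windows of the same length. TTGTTTAC occurred in 2 windows (2.9%, against 1.23% of all windows) and the insulin response element form CAAAACAA in 1 (1.45%, against 2.51%). The AP-1 letters TGACTCA occurred in 9 windows (13.0%, interval 7.02 to 23.0), against 5.2%. The GATA letters AGATAA were in 6 windows (8.7%, against 11.2%), the ETS letters CCGGAAG in 6 (8.7%, against 8.86%), the TEAD letters CATTCC in 10 (14.5%, against 14.7%) and the E-box CACGTG in 5 (7.25%, against 7.15%). The MEF2 letters CTAAAAATA and the nuclear receptor letters TCAAGGTCA were in none, against 0.518% and 0.424%. Several windows overlap each other, 2 of them at Tor1aip2, so they are not independent. The median GC content was 57.0% in the 69 windows and 52.7% in all windows, and its part in these shares was not tested. These counts run over whole windows, parts of which can lie outside the merged region. A match describes letters and does not show binding at that place.

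FoxO1 signal over these gene body regions was lowest in Veh/Sham, higher in Iso and highest in TAC. The median of the mean signal stood at 6.78 for Veh/Sham, 9.68 for Iso and 12.9 for TAC. Veh/Sham was the lowest of the 3 libraries in 812 regions (72.3%), against 62.5% of all merged regions, and TAC was the highest in 712 (63.4%), against 63.1%. The middle 80% of regions ran from 2.84 to 12.5 in Veh/Sham, from 4.57 to 18 in Iso and from 6.57 to 20.3 in TAC, so the ranges overlapped widely. The median peak depth was 10, 14 and 17 fragments in the same order, which makes a single region an imprecise measurement. All merged regions had medians of 8.71, 11.0 and 13.96. Regions without a CpG island within 1000 bp of a start (n = 1161) had 8.33, 11.1 and 13.75, and those in genes more than 10000 bp from a start (n = 2215) had 7.35, 11.75 and 12.0. The regions 1000 to 10000 bp from the nearest start thus had the lowest medians of the 4 sets in Veh/Sham and Iso. The scaling of the deposited signal from library to library is not given, so a shift shared by all regions cannot be told apart from scaling.

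**Figure D1:**
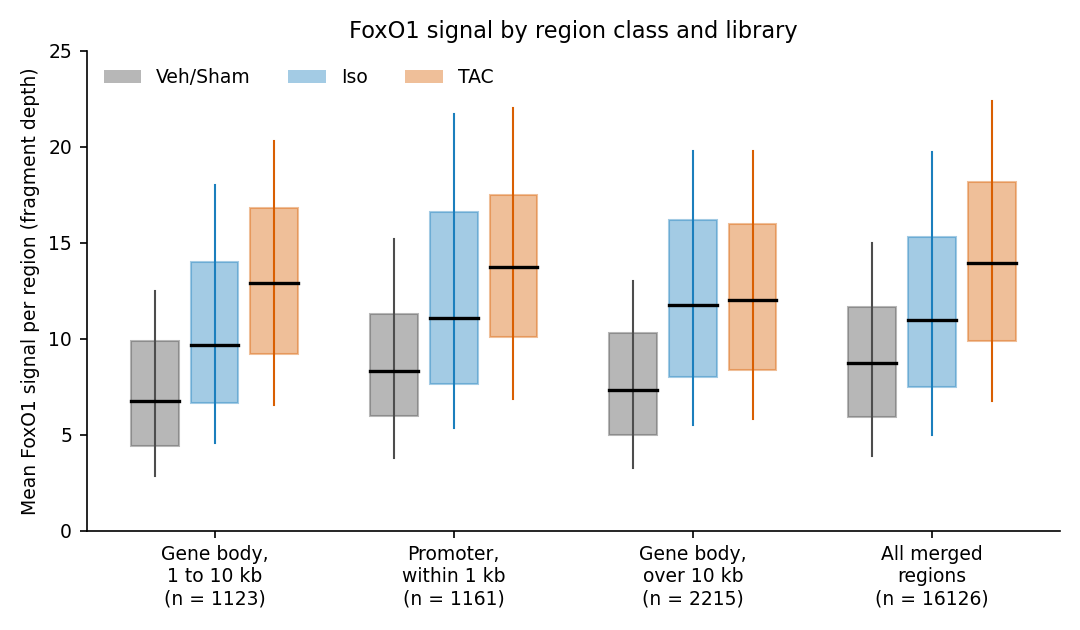
Mean FoxO1 signal per region (fragment depth, vertical axis) in the 3 libraries, for the gene body regions described, for promoter regions and more distant gene body regions without a CpG island, and for all merged regions. Black lines are medians, boxes the middle 50% of regions and thin lines the middle 80%. In the 1123 gene body regions the medians step up from 6.78 to 9.68 to 12.9.

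Against Veh/Sham, the median log2 ratio of mean signal (with 1 added to both values) was 0.47 in Iso and 0.77 in TAC. By a rule of size at 1.5-fold, 477 regions (42.5%, 95% Wilson interval 39.6 to 45.4) were higher in Iso than in Veh/Sham, against 31.8% of all merged regions, and 69 (6.14%) were lower, against 8.01%. For TAC against Veh/Sham, 681 regions (60.6%, interval 57.8 to 63.5) were higher, against 50.3%, and 43 (3.83%) were lower, against 4.19%. For TAC against Iso the median was 0.35, with 403 regions higher (35.9%, interval 33.1 to 38.7), against 31.4%, and 112 lower (9.97%), against 8.86%. The intervals cover counting only. Any pair of these comparisons shares a library.

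Measured from the median ratio of all merged regions, fewer regions were higher and more were lower in each comparison. The median over all merged regions was 0.30 for Iso and 0.59 for TAC, both against Veh/Sham, and 0.29 between TAC and Iso. Relative to these, 287 regions (25.6%) were higher and 132 (11.8%) lower in Iso than in Veh/Sham, against 17.8% and 16.1% of all regions. For TAC against Veh/Sham, 362 (32.2%) were higher and 151 (13.4%) lower, against 18.4% and 17.0%. For TAC against Iso, 246 (21.9%) were higher and 206 (18.3%) lower, against 17.0% and 17.4%, so here the members were close to the background.

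The neighbouring classes differed from these regions in a different way for each comparison. For TAC against Veh/Sham, the median of 0.77 stood above 0.58 in promoter regions and 0.64 in the more distant gene body regions. It did so under each of the 6 settings tried, which were ways of computing the ratio and filters on regions. For Iso against Veh/Sham, the median of 0.47 lay between 0.39 in promoter regions and 0.59 in the distant ones, again in all 6. For TAC against Iso, promoter regions had 0.21 and the distant gene body regions 0.04, and 17.8% of the distant regions were at least 1.5-fold lower in TAC. Coverage moved the last of these medians: among the 431 regions whose mean over the 3 libraries reached the median of all regions, 11.2, the median for TAC against Iso was 0.23, against 0.25 in all merged regions as well covered. In the same 431 regions the median was 0.485 for Iso and 0.717 for TAC against Veh/Sham, against 0.333 and 0.577. This split by signal was added after the data were seen.

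**Figure D2:**
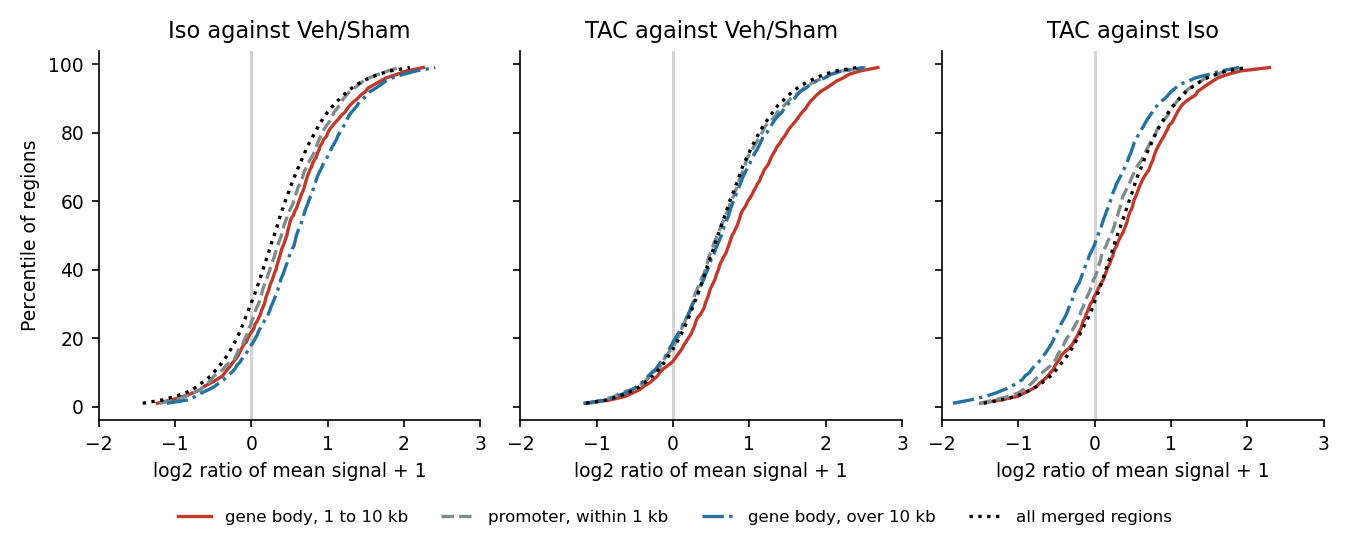
Percentiles (vertical axis) of the log2 ratio of mean signal plus 1 (horizontal axis) for each comparison, with 1 line per class of region, the 3 named classes being those without a CpG island. In the middle panel the gene body line (median 0.77) lies to the right of the other lines, and in the left panel it lies between the promoter (0.39) and distant gene body (0.59) lines.

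Fewer of these regions had been called as intervals by the authors than of all merged regions. In Veh/Sham 358 were called (31.9%, against 49.1%), in Iso 295 (26.3%, against 36.0%) and in TAC 412 (36.7%, against 45.0%). None of the 3 libraries had a call in 450 regions (40.1%, against 30.5%), and all 3 had one in 128 (11.4%, against 22.1%). A call in TAC alone was the most frequent single pattern with a call, at 195 regions (17.4%), against 11.5% of all regions. Calls did not mark the same signal in each library. Between a mean signal of 12 and 16, the Veh/Sham library had calls in 95.5% of regions, the Iso library in 50.0% and the TAC library in 38.3%. Regions called in none had medians of 5.0, 7.56 and 10 and a median length of 265 bp, and those called in all 3 had 12.2, 16.2 and 18.7 and 744 bp.

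Signal in Iso, and to a smaller extent in Veh/Sham, was lower close to the start. In the 287 regions from 1000 to 2000 bp, Veh/Sham had a median of 6.33, Iso of 8.0 and TAC of 13.0. In the 170 regions from 7500 to 10000 bp they were 7.35, 11.0 and 13.6. The TAC median moved between 12.3 and 13.6 over the 5 bins of distance, without an order. The median log2 ratio of TAC against Iso was 0.52, 0.34, 0.29, 0.24 and 0.23 from the nearest bin to the farthest, and that of TAC against Veh/Sham lay between 0.72 and 0.84. For Iso against Veh/Sham it was 0.36, 0.56, 0.42, 0.49 and 0.59 over the same bins, without a steady order. The median region length was 302 bp in the nearest bin and 358 bp in the farthest, and its part was not tested.

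**Figure D3:**
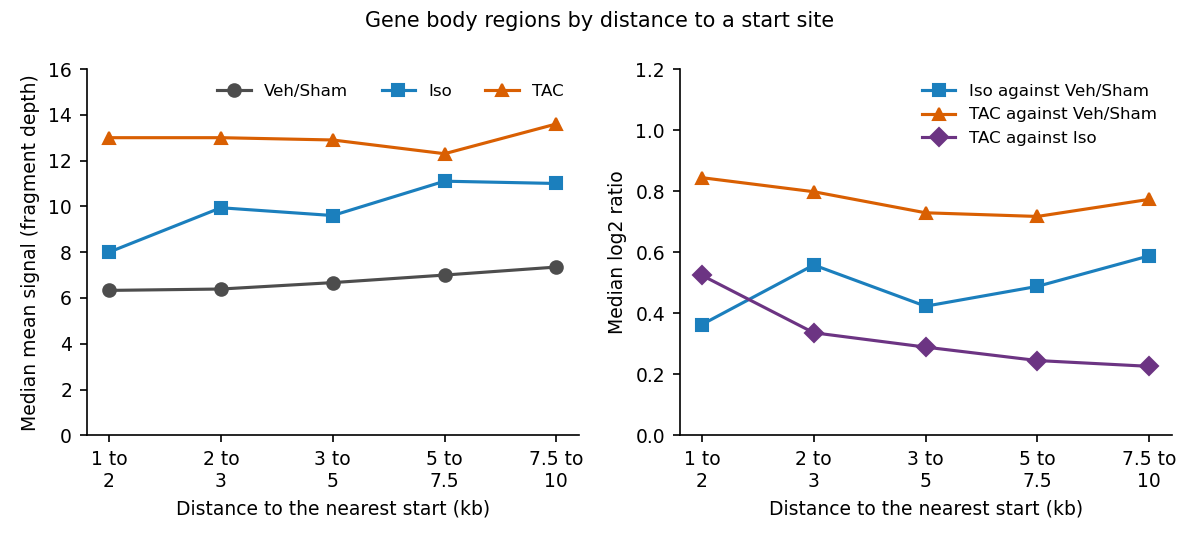
Left, the median of the mean signal (fragment depth) in each library against the distance to the nearest start (kb). Right, the median log2 ratio of the 3 comparisons over the same bins. The Iso line goes from 8.0 to 11.0, without a steady order, and the Veh/Sham line from 6.33 to 7.35. The TAC against Iso line descends from 0.52 to 0.23.

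The 8 regions with the highest signal over the 3 libraries lay in Ighg1, Dhrs3, Emilin1, Rtn2, Fis1, Rfx8, Hmgb1 and Mafk, and 7 of them were called in every library. The Ighg1 region is the exception. The highest Iso value belonged to Dhrs3, a retinaldehyde reductase that limits retinoic acid (chr4:144898256-144898691), with 22.1 for Veh/Sham, 41.3 for Iso and 35.1 for TAC. Its peak depths of 38 and 69 give an Iso to Veh/Sham ratio of 1.82 (95% exact counting interval 1.2 to 2.77). Peak depth ratios of single regions, here and below, are not recentred. Over all merged regions the median log2 ratio of peak depth was 0.32 for Iso and 0.55 for TAC against Veh/Sham. An interval clear of equal depth may therefore still hold the shift shared by all regions. Emilin1, a glycoprotein of elastic fibres, had 22.2, 31.6 and 31.1. Rtn2, a reticulon of the endoplasmic reticulum, had 30.4, 26.4 and 24.1, the highest Veh/Sham value and the lowest in TAC. Fis1, an adaptor of mitochondrial fission, had 26.3, 19.4 and 34.0, with Iso lowest. Hmgb1, a chromatin protein with many processed copies in the genome among which reads may be split, had 21.1, 21.2 and 35.2, with TAC alone high and a peak depth ratio to Veh/Sham of 1.71 (1.15 to 2.58). Mafk, a small Maf transcription factor, had 17.7, 24.0 and 31.6 over the longest region, at 2545 bp.

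The Ighg1 region stood apart in TAC. Ighg1 codes for an immunoglobulin heavy chain constant region, expressed by B-lineage cells, and belongs to a family of similar genes among which reads may be split. For this region (chr12:113328871-113329836) the Veh/Sham library listed 0, the Iso library 2.7 and the TAC library 121, with peak depths of 0, 6 and 190 fragments. With Veh/Sham set to a floor of 3 fragments, the TAC peak depth was 63.3-fold that of Veh/Sham. The counting interval of 190 fragments against 0 starts at 51.0. Against Iso, the TAC peak depth was 31.7-fold higher (14.3 to 87.4). Only the TAC library had a call there. Among 11 leukocyte markers it was the 1 with such a region, and none of the 12 cardiomyocyte, 9 smooth muscle and pericyte or 6 liver markers had one. Of 12 endothelial markers Tek, Egfl7 and Eng did, and of 10 fibroblast markers Pdgfra. Of 6 neuronal markers Syn1 did, in a region whose nearest start is that of Timp1. Such regions are places of FoxO1 signal and give no measure of expression, so they do not check the tissue. The other 4 regions listed at 0 in Veh/Sham lay in Igfbp5, Usp25, Agap3 and Ttyh3. In Usp25, a ubiquitin protease, Iso had 6.14 and TAC 19.0. In Ttyh3, a member of the tweety family of membrane proteins, Iso had 3.22 and TAC 16.7. In Agap3, an Arf GTPase-activating protein, Iso was the higher, with 14.8 and 7.62. No region of this kind lay in Foxo1, Foxo3, Foxo4, Foxo6 or Dio2.

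Regions named next were picked for extreme ratios among those at or above the median signal, so their intervals describe counting and are no test. Highest for Iso against Veh/Sham was Tbc1d15, a GTPase-activating protein of Rab7, with 1.83 for Veh/Sham, 16.7 for Iso and 12.7 for TAC (log2 ratio 2.64). Its peak depths were 3 and 19, a ratio of 6.33 (1.86 to 33.4), and no library had a call. S100a11, a calcium-binding protein, had 2.5, 20.1 and 7.75, with Iso alone high and a peak depth ratio of 9.0 (2.77 to 46.4). Abhd17a, a depalmitoylase, had 3.0, 21.7 and 17.8. The other 5 were Csnk1e, a kinase of clock proteins, Tnfrsf1b, a receptor for tumour necrosis factor, Nfib, a nuclear factor I transcription factor, Ablim3, an actin-binding protein, and Fcho2, a protein of early endocytosis, with log2 ratios from 2.18 to 2.43. In all 8 of these regions TAC was also above Veh/Sham and below Iso. Outside these 8, other regions of Csnk1e had 14.8, 16.8 and 19.5 and 2.69, 4.69 and 14.5, with TAC highest in both.

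Lowest for Iso against Veh/Sham was Zbtb7b, a zinc finger transcription factor, with 17.7 for Veh/Sham, 5.46 for Iso and 12.4 for TAC. The log2 ratio was -1.54 and the peak depth ratio 0.28 (0.102 to 0.666). Another region of Zbtb7b went the other way, with 9.29, 23.9 and 16.9. Next were Ccdc102a, Ccdc19 and Dusp7, a phosphatase of ERK kinases. A different Dusp7 region had 10.2, 19.3 and 19.1, with Veh/Sham lowest. Zfp36l2, which promotes decay of AU-rich mRNAs, had 12.8, 6.58 and 13.5. Gata2, a transcription factor of blood and endothelium, had 14.6, 8.0 and 15.4, with a peak depth ratio of 0.708 (0.357 to 1.37) that spans 1. Ski, a corepressor of Smad proteins, had 12.3, 6.86 and 19.4. In each of the 8 regions picked for the lowest ratios Iso was the lowest of the 3 libraries. The last was LOC101056140 with 5.88, 3.25 and 22.4.

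**Figure D4:**
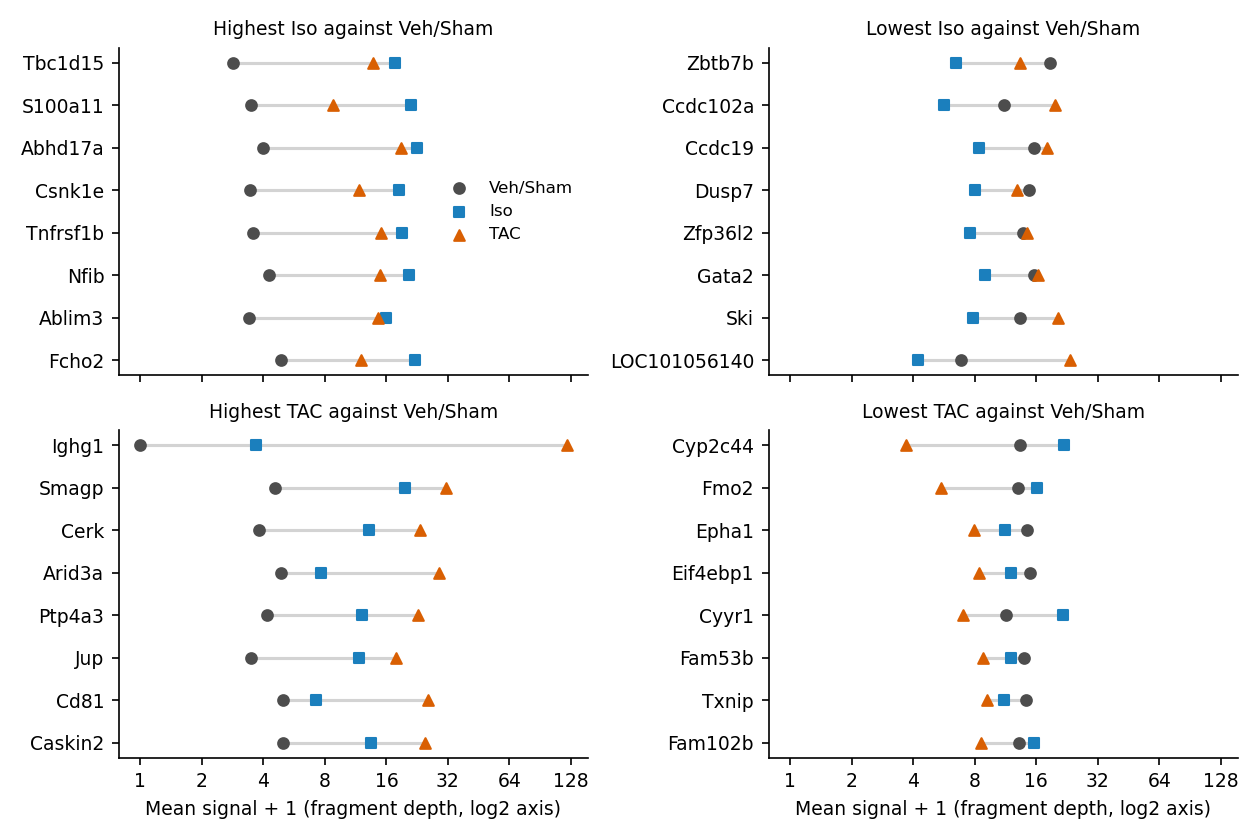
Mean signal plus 1 (fragment depth, log2 axis) in each library for the regions with the highest and lowest ratios against Veh/Sham, 8 per panel, with a grey line from the lowest to the highest library. In the upper left panel Veh/Sham lies apart on the left, and in the lower left panel the TAC point of Ighg1, at 121 before 1 was added, lies far to the right.

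For TAC against Veh/Sham, the highest after Ighg1 was Smagp, a small transmembrane glycoprotein of cell contacts, with 3.57 for Veh/Sham, 18.7 for Iso and 30.4 for TAC. The log2 ratio was 2.78 and the peak depth ratio 7.0 (2.73 to 22.9). Arid3a, an AT-rich DNA-binding protein, had 3.89, 6.67 and 27.9, so that TAC alone was high, with a peak depth ratio of 6.6 (2.56 to 21.7). Cd81, a tetraspanin, had 4.0, 6.25 and 24.5, again with TAC alone high, while another region of Cd81 had 5.5, 19.1 and 19.4. Jup, plakoglobin of desmosomes and adherens junctions, had 2.5, 10.8 and 16.9. Cerk, the ceramide kinase, Ptp4a3, a phosphatase, and Caskin2 completed the 8, with log2 ratios of 2.61, 2.46 and 2.30. All 8 were called in a single library.

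The lowest for TAC against Veh/Sham was Cyp2c44, an epoxygenase of arachidonic acid, with 12.4 for Veh/Sham, 20.9 for Iso and 2.7 for TAC. The log2 ratio was -1.86 and the peak depth ratio 0.222 (0.0547 to 0.675). Fmo2, a flavin-containing monooxygenase, had 12.0, 15.2 and 4.5, with an interval of the peak depth ratio that spans 1 (0.161 to 1.22). Both had TAC lowest and Iso highest. Epha1, an ephrin receptor, Cyyr1, Fam53b and Fam102b followed, with log2 ratios from -0.86 to -0.63, together with Eif4ebp1 and Txnip, which are given with the FoxO target genes.

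For TAC against Iso, the highest ratio after Ighg1 was that of LOC101056140, with a peak depth ratio of 6.75 (2.35 to 26.5). Bik, a pro-apoptotic BH3-only protein, had 4.71 for Veh/Sham, 5.0 for Iso and 21.1 for TAC, a peak depth ratio to Iso of 3.57 (1.5 to 9.78). A second region of Emilin1, 1849 bp from its start, had 7.38, 6.5 and 21.4. The lowest ratio was that of Cyp2c44, at -2.57 on the log2 scale and 0.148 (0.0377 to 0.425) by peak depth. Ccbe1, a protein of lymphatic vessel growth, had 5.8, 20.3 and 5.5, with Iso alone high and a ratio of 0.259 (0.0953 to 0.61). Cyyr1 had 10.4, 20.7 and 6.0, and the scaffold gene Ahnak had 7.67, 24.0 and 9.33. Samd4, an RNA-binding repressor of translation, and Tmem65, a membrane protein, had log2 ratios of -1.50 and -1.24.

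Regions within 1 gene often differed from each other. Lrrc8a, a subunit of the volume-regulated anion channel, held 9 regions between 2238 and 25259 bp from its start, some of them near the start of Phyhd1. Their mean signal ran from 2.2 to 15.9 in Veh/Sham, from 6.33 to 20.8 in Iso and from 8.3 to 23.6 in TAC. Of the 9, 7 were at least 1.5-fold higher in TAC than in Veh/Sham and 1 was higher in Iso. Gnai2, the alpha subunit of an inhibitory G protein, held 7. Close to its start, at 1794 bp, its region had 16.7, 14.5 and 25.4, and at 16984 bp 6.0, 12.4 and 25.2, so TAC was level between these 2 while Veh/Sham differed. In the other 5, TAC ran from 8.44 to 20.2. Jup held 6, of which 5 were higher in TAC and 3 in Iso. Its sixth, nearest to the start at 4972 bp, had 6.62, 3.62 and 5.5 and was the lowest of the 6 in Iso and TAC but not in Veh/Sham.

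Klf3, a Krueppel-like repressor, held 5 regions. At 2667 bp its region had 19.2, 25.2 and 26.6, with the libraries close together, and at 4700 bp it had 2.57, 8.29 and 18.6, with TAC apart. In Mafk all 5 were at least 1.5-fold higher in TAC than in Veh/Sham, and the same held for the 6 of Zmynd8, a reader of histone marks, the 5 of Il4ra, the interleukin 4 receptor, and the 5 of Sema6b, a semaphorin. None of the Il4ra regions was called in any library, with values from 1.5 to 10.1 in Veh/Sham and from 7.25 to 19.4 in TAC. Ehd2, a caveolar ATPase with 6 regions, had 2 higher in TAC and 1 region higher in Iso. Pitpnm2, Tmem140 and 4632428N05Rik held 5 each. Regions of 1 gene share neighbourhood and are not replicates.

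**Figure D5:**
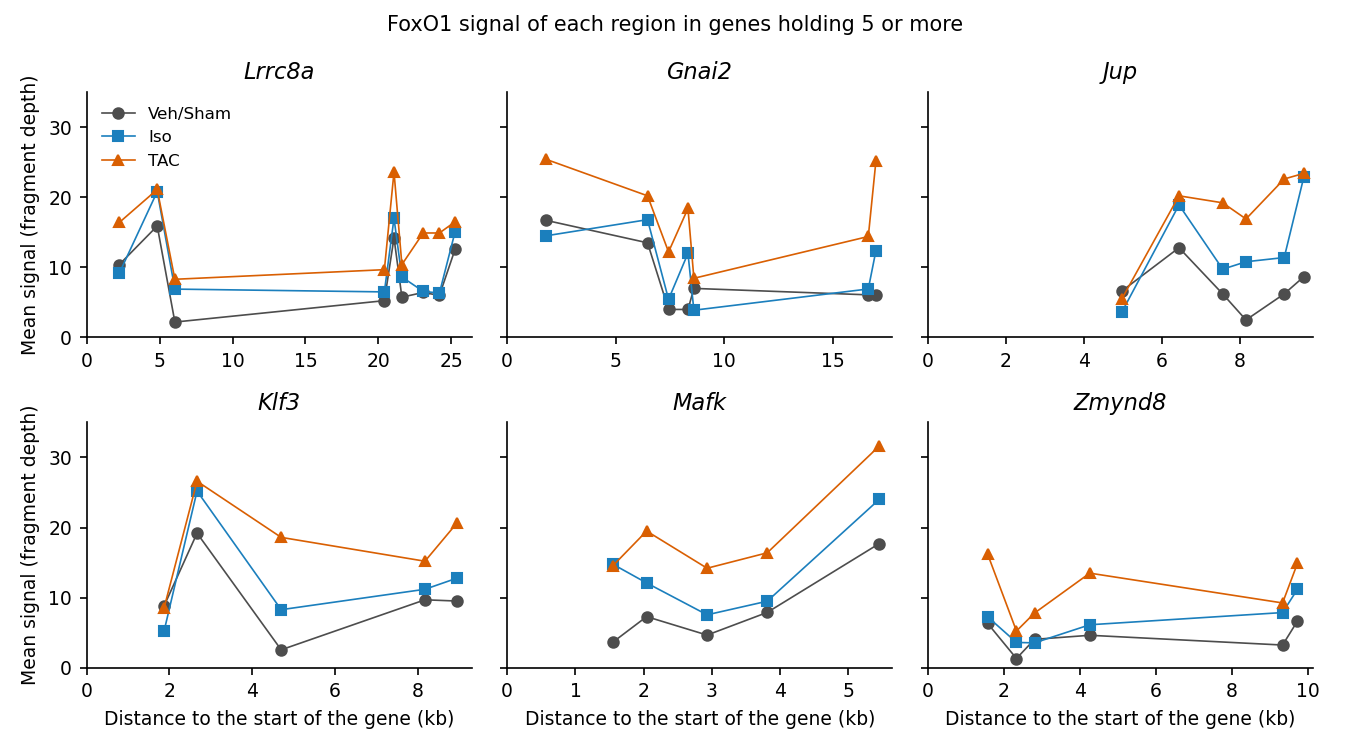
Mean signal (fragment depth) of each region in 6 of the genes that hold 5 or more, against its distance to the start of the gene (kb), with 1 line per library joining the regions. In Mafk and Zmynd8 the TAC points lie above or level with the others at every region. In Jup the region nearest to the start (5.5 in TAC) is the lowest of the gene in Iso and TAC.

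FoxO target genes, a list of genes described elsewhere as regulated by FoxO factors, were represented by 11 of 43 genes and 15 regions. Of the regions, 8 were higher and 4 lower in TAC than in Veh/Sham, against 50.3% and 4.19% of all merged regions, and 4 were higher and 0 lower in Iso, against 31.8% and 8.01%. Measured from the all-region median, 5 stood higher and 5 lower in TAC, and 4 and 2 in Iso. These shares of all regions are the background for the counts of the other lists too, where counts relative to the median are given second. Every list region is also one of the 1123, of which 60.6% were higher in TAC and 42.5% in Iso than in Veh/Sham. The medians of the 1123 were 0.77 and 0.47, and lists should be read beside these as well. Bcl6, a transcriptional repressor, had 2.33 for Veh/Sham, 15.3 for Iso and 9.78 for TAC. Trib1, a pseudokinase of protein turnover, had 4.09, 8.48 and 15.1. Mxi1, an antagonist of Myc, had 5.53, 8.23 and 17.3. All 3 genes were lowest in Veh/Sham. Eif4ebp1, a repressor of cap-dependent translation, had 13.9, 11.1 and 7.43. Txnip, an inhibitor of thioredoxin, held 2 regions with 13.3, 10.2 and 8.2 and with 10, 9.81 and 6.24. These 3 regions were lowest in TAC, but the peak depth intervals span 1 (0.293 to 1.46 for Eif4ebp1, 0.38 to 1.95 for the first of Txnip). Pik3ip1, an inhibitor of phosphoinositide 3-kinase, had a region with 7.29, 6.43 and 4.43 and another, beside it, with 1.0, 5.1 and 9.6. Map1lc3b, an autophagosome protein, had 5.83, 6.33 and 13.8. Of 38 genes of insulin and growth factor signalling upstream of FoxO, only the adaptor Shc1 held such regions, with 3.21, 10.4 and 16.8 and with 4.67, 10 and 13.3.

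Among Krueppel-like factors and immediate early genes, which respond fast to stimuli, 16 of 42 genes held 31 regions. Of these 21 were higher and 0 lower in TAC than in Veh/Sham. The median log2 ratio was 0.92, against 0.59 over all merged regions and 0.77 over the 1123 regions. With 50.3% of all regions higher, the count relative to the median was 12 higher and 2 lower. In Iso 13 were higher and 3 lower than in Veh/Sham, and 7 and 3 relative to the median. Klf2, a flow-responsive endothelial factor, had 6.08, 7.33 and 22.2, with TAC alone high and a peak depth ratio to Veh/Sham of 3.22 (1.49 to 7.74). Btg2, an antiproliferative cofactor, had 1.5, 2.86 and 20.3, and its ratio of 11.5 has a wide interval (2.84 to 101.0). Zfp36l1, which promotes mRNA decay, had 2.17, 7.17 and 19.7. Egr1, an early growth response factor, had 1.5, 3.85 and 13.6 and was called in none. Klf7 went the other way in Iso, with 11.5, 4.3 and 9.1.

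Cardiac transcription factors were represented by 6 of 37 genes and 9 regions, of which 8 were higher in TAC than in Veh/Sham and 0 lower, with a median of 1.3, against 50.3% and a median of 0.59 over all merged regions. Relative to the median, 7 were higher and 0 lower. Against Iso, 7 of the 9 were higher in TAC (31.4% of all regions were), and 5 relative to the median. Srf, the serum response factor, had 6.0, 11.4 and 22.0, with a peak depth ratio of TAC to Veh/Sham of 3.38 (1.49 to 8.6). Mef2d held 2 regions, with 7.56, 5.11 and 18.3 and with 7.22, 2.78 and 19.2, so that Iso was lowest and TAC highest in both. Nfatc1, the calcineurin target, held 2 as well, with 3.17, 4.58 and 18.2 and with 1.43, 8.86 and 14.4. Rara, a retinoic acid receptor, had 9.38, 15.4 and 22.4 and called intervals in 2 libraries. Zfpm1, a cofactor of GATA factors, had 12.9, 10.5 and 18.2, and Tead4 had 6.71, 5.86 and 13.3.

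Of the adrenergic, G protein and cAMP genes, 7 of 44 held 16 regions. In TAC 11 were higher and 0 lower than in Veh/Sham, against 50.3% and 4.19% of all regions, and in Iso 6 were higher and 2 lower, against 31.8% and 8.01%. Relative to the median these counts were 7 and 1 in TAC and 6 and 2 in Iso. Besides Gnai2, Pde2a, a cAMP phosphodiesterase stimulated by cGMP, had 18.5, 20.5 and 32.2. Pde4a, another cAMP phosphodiesterase, had 13.2, 17.9 and 21.2 and a second region with 5.58, 5.8 and 17.8. Gna11, which couples receptors to phospholipase C, had 6.36, 16.5 and 19.8. Its relative Gnaq had 3.14, 15.4 and 4.86, with Iso alone high. Rapgef3, the cAMP sensor Epac1, had 3.57, 10.6 and 19.1. Arrb1, beta-arrestin 1, had 12.1, 7.25 and 10.8, with Iso lowest.

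In the MAP kinase cascade 8 of 50 genes held 12 regions, with 10 higher and 0 lower in TAC than in Veh/Sham, where 50.3% of all regions were higher, and 8 higher and 2 lower in Iso, where 31.8% were higher. Relative to the median these counts were 6 and 1 in TAC and 5 and 2 in Iso. Map2k3, a kinase of p38, had 5.5, 15.0 and 18.2, and Map3k11 had 9.8, 19.0 and 20.9, with Veh/Sham apart in both. Dusp6, a phosphatase of ERK, had 7.21, 11.3 and 17.1 and, nearer to its start, 8.71, 5.29 and 7.43, with Veh/Sham highest. Spry4, an inhibitor of receptor tyrosine kinase signalling, had a region with 4.12, 2.22 and 15.8, high in TAC alone. Sarcomere and Z-disc genes were few, with 5 of 43 genes and 6 regions, of which 4 were higher and 1 lower in TAC than in Veh/Sham, where 50.3% of all regions were higher. Flnc, filamin C of the Z-disc, had 3.29, 7.0 and 16.3, and Pdlim7 had 4.78, 12.7 and 22.4. Tpm1, tropomyosin, ran against them with 10.3, 7.29 and 2.57. Among fetal and hypertrophic stress genes 4 of 28 held 5 regions, of which 4 were higher in TAC than in Veh/Sham, against 50.3% of all merged regions, and 4 in Iso, against 31.8%. Meox1, a homeobox factor, had 5.14, 11.2 and 22.3, and Ctgf, a matrix protein induced by TGF-beta, had 4.71, 7.71 and 4.86. Among ion channel and calcium handling genes, Gja1, connexin 43 of gap junctions, had 4.8, 5.7 and 11.9, and Atp2b4, a calcium pump of the plasma membrane, had 4.17, 2.17 and 2.83.

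Extracellular matrix and TGF-beta genes held 20 regions in 13 of 64 genes. Of these 10 were higher and 1 lower in TAC than in Veh/Sham, and 6 were higher and 0 lower in Iso. The higher counts were near the 50.3% and 31.8% of all regions and below the 60.6% and 42.5% of the 1123. Relative to the median these counts were 5 and 3 in TAC and 3 and 4 in Iso. The median for TAC against Veh/Sham was 0.6, close to the 0.59 of all merged regions and below the 0.77 of the 1123. Hspg2, perlecan of basement membranes, had 9.71, 18.8 and 23.2 in the most distant of its 3 regions. Ltbp4, which binds latent TGF-beta, had 2.89, 9.5 and 16.2. Timp3, an inhibitor of metalloproteinases, had 11.5, 15.1 and 13.1, and Loxl1, which cross-links elastin, had 11.3, 8.27 and 6.67.

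Endothelial and angiogenesis genes held 21 regions in 12 of 60 genes, of which 2 were higher and 3 lower in Iso than in Veh/Sham, against 31.8% and 8.01% of all regions. Relative to the median, 2 were higher and 8 lower. The median log2 ratio was -0.036, against 0.30 over all merged regions. For TAC against Veh/Sham 8 were higher and 1 lower, and 3 and 5 relative to the median, with a median of 0.29, below the 0.59 of all merged regions. Whether these genes differ from others was not tested. Tek, the angiopoietin receptor, had 13.4, 17.1 and 18.2 and was called in all 3 libraries. Rasip1, a regulator of vessel lumens, had 1 region with 9.48, 13.1 and 18.2 and another with 14.2, 6.1 and 12.9. Notch1 had 3.11, 10.4 and 16.1 and, nearer to its start, 7.14, 4.57 and 14.9. S1pr1, a sphingosine 1-phosphate receptor, held 3 regions, with 12.3, 12.0 and 13.8, with 6.25, 9.25 and 14.5, and with 9.94, 6.41 and 5.24, so that its regions had different orders of the libraries. Egfl7, a secreted angiogenic factor, had 7.29, 8.71 and 19.0.

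The remaining lists held few regions. Tnfrsf1b, beside Ighg1 the other gene of the leukocyte list, held 2 regions, with 7.62, 18.8 and 20.1 and with 2.57, 18.1 and 14.1. Fibroblast and smooth muscle genes gave Dpt, dermatopontin, with 5.33, 17.3 and 4.83, and Pdgfra with 2.71, 5.14 and 7.86. In lipid metabolism, 3 of 48 genes held 6 regions, 4 of them in Lipe. Lipe had 16.2, 17.3 and 23.7 and 13.4, 15.4 and 16.8 in the 2 regions called in every library. Ucp2, a mitochondrial carrier, had 5.17, 7.71 and 21.1, high in TAC. Of the clock genes, 4 of 21 held 8 regions, of which 6 were higher in Iso than in Veh/Sham, against 31.8% of all regions, and 2 were so relative to the median. Cry2, a clock repressor, held 3, with Iso highest in each, among them 9.29, 15.3 and 5.14. Nr1d1, the repressor Rev-erb alpha, had 14.2, 15.1 and 14.8, level over the libraries. In autophagy Ulk1, the initiating kinase, had 15.9, 20.2 and 23.6, and Gabarap had 1.17, 5.5 and 2.67. Glycolysis genes gave Pfkfb3, with 7.92, 14.3 and 10.9, and Gapdh, which has many processed copies, with 3.36, 6.91 and 10.5. Syn1, the synapsin of the neuronal list, had 9.0, 10.3 and 2.14, with TAC low. That region lies 57139 bp from the start of Syn1 and 6387 bp from that of Timp1. The thyroid hormone and liver lists held none.

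Gene body regions were also set beside the promoter region of the same gene. Of 716 genes whose own start lay within 10000 bp of a region, 495 (69.1%) also had a merged region within 1000 bp of the start, and 399 of these overlapped a CpG island. Where a gene had several regions at either place, the one with the highest signal over the 3 libraries was used, and genes held different numbers of each, which bears on the shares below. The gene body region had a median signal of 7.21 for Veh/Sham, 10.8 for Iso and 13.7 for TAC, and the promoter region one of 9.96, 11.2 and 16.8. The gene body region was the higher of the pair in 159 genes (32.1%) for Veh/Sham, 239 (48.3%) for Iso and 182 (36.8%) for TAC. Iso thus came nearest to equal numbers. For Iso against Veh/Sham the median log2 ratio was 0.49 in the gene body and 0.14 at the promoter, and for TAC against Veh/Sham it was 0.76 and 0.62. For TAC against Iso the promoter had the higher median, 0.49 against 0.32 in the gene body, and 203 of the 495 genes had the higher ratio in the gene body. Across these 495 genes, which share libraries and are not independent replicates, the ratios at the 2 places showed little correlation. Pearson r was -0.0052 for Iso and 0.083 for TAC against Veh/Sham, with 0.15 between TAC and Iso. Few fragments per region make each ratio imprecise, which lowers r, so r cannot tell whether the 2 places change together. The 60 regions at RefSeq start windows had medians of 8.24, 11.3 and 14.6, against 6.67, 9.57 and 12.8 in the other 1063. Both of these comparisons were added after the data were seen.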

How the data were processed

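FoxO1 ChIP-seq was done on 3 pools of 3 hearts, 1 library per condition. Per the labels, the samples hold a Drosophila chromatin spike-in. The submitters' processing notes name BWA, SICER and the mm10 build and give no versions. The authors deposited 1 table of regions merged over 5 libraries, with the mean signal (average fragment depth), the peak signal (highest depth) and the called intervals per library. The 6 value columns of 2 libraries that match no sample were not used. Total reads and scaling between libraries are not given there.

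Members were selected by CpG island count, position and distance columns, and genes and coordinates are those of the table. Of 817 host gene symbols, 96.9% matched RefSeq. The log2 ratio of mean signal used a pseudocount of 1, which understates ratios at low signal; 1.5-fold was a rule of size, not a test. Ratios of peak depths have exact 95% Clopper-Pearson intervals and shares 95% Wilson intervals. Both cover counting error only, as no molecular identifiers separate duplicate fragments from independent ones.

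Named were the 8 highest signals, the 8 highest and 8 lowest ratios per comparison (at or above the median signal, 1 region per gene, no symbols of Gm with digits or ending in Rik), genes with 3 or more regions (here 5 or more), members of 20 gene lists, FoxO genes and Dio2, and regions at the limits. In the lists, genes named beyond the 3 highest signals, and the regions listed at 0, were chosen after their values were seen. The members and lists were chosen with earlier results of these data known. A motif scan of region centres needed a genome and was replaced by RefSeq start windows. Alternatives were other pseudocounts, peak depth, a signal filter, recentring, called regions, 1 region per gene and a 2-fold rule. One list member is not reported here. Functions were tested on simulated data. The work used scipy 1.17.1, pandas 2.3.3, numpy 2.4.6 and matplotlib 3.10.9 under Python 3.11.15.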

Additional observations from a re-analysis of the deposited data

How the results depend on the processing

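No alternative reversed the sign of a median ratio. Counts could not reverse under the rule used, and a change of pseudocount cannot change the sign of a ratio. In all, 29 values stayed within their margin (for counts, 1.5 times the main count) while 42 moved. Iso against Veh/Sham had 477 higher and 69 lower regions. The higher count became 291 with a pseudocount of 5, 287 after recentring on the median, 170 of the 478 called in either library and 232 by a 2-fold rule; the lower count became 35, 132, 41 and 30 in the same order, 21 without the 25% of regions with the lowest signal and 41 with 1 region per gene. The median of 0.47 became 0.32 and 0.51 with pseudocounts of 5 and 0.1, 0.17 relative to the median and 0.37 in called regions. TAC against Veh/Sham had 681 higher and 43 lower. The higher count became 449 without the lowest signal, 362 relative to the median, 339 of the 591 called and 443 by the 2-fold rule; the lower count became 23, 151 and, by the 2-fold rule, 15, and 20 with a pseudocount of 5. The median of 0.77 became 0.71 with peak depth, 0.56 and 0.87 with pseudocounts of 5 and 0.1, and 0.19 relative to the median. TAC against Iso had 403 higher and 112 lower. The higher count became 241 without the lowest signal, 246 relative to the median, 224 of the 541 called, 244 with 1 region per gene and 199 by the 2-fold rule; the lower count became 63 with a pseudocount of 5, 206 relative to the median, 63 in called regions and 37 by the 2-fold rule. The median of 0.35 became 0.24 with peak depth, 0.26 with a pseudocount of 5, 0.27 without the lowest signal, 0.05 relative to the median, 0.42 in called regions and 0.24 with 1 region per gene. An upper limit of 5000 bp left 719 of 1123 regions. Stricter rules and filters on regions lower counts by construction; other causes were not tested. Depth limits single regions, whose median peak was 10 to 17 fragments. No paired analysis was possible because each condition has 1 library.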
